A study of Mus musculus with 12 samples.

Results

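The proteasome genes described here were taken by symbol, as every gene name that begins with Psma to Psmg followed by a digit and is no pseudogene, and were then selected on their measured level, with an FPKM value (fragments scaled to transcript length and to the fragments of the library) over 1 in at least 3 of 12 RNA-Seq libraries of mouse T blast cells. Of 24439 gene names in the files, 50 matched the symbols and 48 passed the minimum. These comprise 7 alpha and 7 beta subunits of the constitutive 20S core, 3 inducible subunits of the immunoproteasome, 6 ATPase and 11 non-ATPase subunits of the 19S regulator, 3 assembly factors of the regulator, 4 assembly factors of the core, and 6 genes of other activators and an inhibitor. The remaining gene, Psmc3ip, encodes a cofactor of meiotic recombination and shares only the start of its symbol with the subunits. It was also the member closest to the minimum, at 0.212 to 5.34 FPKM and over 1 in 6 libraries, all with IL-2 as placed below, so that it entered through the groups where it was high and its IL-2 differences are only a description. It was followed by Psmd9 at 0.943 to 5.50 FPKM and over 1 in 11. Left out were Psma8 at 0 to 0.0269 FPKM and Psmb11 at 0.0799 to 0.222 FPKM, the alpha subunit of the testis and the beta subunit of the thymic cortex. All 48 members also passed the filter on low values of the tests.

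The study asked how IL-2 affects gene expression in T cells that have been activated before, both without and with restimulation. Every library came from CD4 T cells of the spleen of C57BL/6 C42 mice, a transgenic line with a fragment of the human IL3/CSF2 locus, and the age of the animals is not given in the sources used here. The cells were made into blasts with Concanavalin A at 2 µg/ml for 40 h and were expanded with 50 U/ml IL-2, for 30 h by the methods and for 2 days by the labels. They then spent 16 h with IL-2 (TB IL-2) or without it (TB IL-2nil), and the matching groups TB+ IL-2 and TB+ IL-2nil were stimulated for a further 2 h with PMA at 20 ng/ml and the calcium ionophore A23187 at 2 µM (PMA/I). Below, resting and at rest mean only without PMA/I, because the paper describes T blasts kept in IL-2 as rapidly dividing. There were 3 libraries in each of the 4 groups. No source states whether they came from separate mice, so P-values measure the spread between these libraries. In bulk RNA, fewer cells of a type and less RNA per cell cannot be told apart.

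Before any result, 2 libraries went against their labels. In the study's own list of differentially expressed genes, the column of TB IL-2nil replicate 3 holds the gene order of the library labelled TB+ IL-2 replicate 3 (Spearman rho of 1 over 1391 genes), and the column of TB+ IL-2 replicate 3 holds that of the library labelled TB IL-2nil replicate 3, while the other 10 columns match the library of their own label. Il2, which PMA/I induces in T cells, was at 1368 FPKM in the library labelled TB IL-2nil replicate 3 and at 0.290 FPKM in the library labelled TB+ IL-2 replicate 3. In the remaining libraries it was at 0 to 1.18 FPKM without PMA/I and at 1095 to 2374 FPKM with PMA/I. Both libraries were therefore placed in each other's group, as in that list, a choice made with earlier results of these data known. All values below follow this placement, and replicate 3 of TB IL-2nil and of TB+ IL-2 means the library so placed. Relative depth, read from the steps between low values, ran from 0.409 (TB IL-2nil replicate 2) to 1.24 (TB+ IL-2nil replicate 1), and absolute depth is unknown. Counts are also given with the labels as deposited and without both libraries. TB+ IL-2nil replicate 1 also stood apart, with 59207 FPKM of Rpph1 and 50821 FPKM of Rmrp, 2 short non-coding RNAs that reached at most 30351 and 18232 FPKM in the other 11 libraries.

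The proteasome degrades proteins that carry ubiquitin chains. Its core is a stack of rings of alpha and beta subunits, of which Psmb5, Psmb6 and Psmb7 cut the substrate, and the 19S regulator recognises, unfolds and feeds it in. Interferon-gamma and lymphoid identity bring in Psmb8, Psmb9 and Psmb10, which replace Psmb5, Psmb6 and Psmb7 in newly built cores and favour the cutting of peptides for MHC class I. Chaperones put the rings together, and other activators, such as the product of Psme3, can bind the core in place of the regulator. T cells that divide under IL-2 make and degrade much protein, and the proteasome of lymphocytes is rich in the inducible subunits.

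The members lie on 16 chromosomes by the 47 that have a position in GENCODE M1 on mm9, so most do not share a neighbourhood. Psmb8 (chr17:34334666-34338399, plus strand) and Psmb9 (chr17:34318932-34324697, minus strand) are 9969 bp apart in the MHC class II region, next to Tap1 and Tap2, and Psme1 and Psme2 are 5912 bp apart on chromosome 14. Of the subunits that they replace, Psmb5 lies at chr14:55232644-55236851 on the minus strand and Psmb6 at chr11:70338869-70341360 on the plus strand. Promoters are shown for these 4 genes because inducible subunits are set against the subunits they replace in the results below. Each runs from 250 bases before to 50 bases after the RefSeq start, 5′ to 3′ on the gene's strand, on GRCm38.p6, which differs from the mm9 build of the expression files. Psmb5 is chr14:54617946-54618245 on the minus strand, Psmb6 is chr11:70525107-70525406 on the plus strand, Psmb8 is chr17:34197945-34198244 on the plus strand and Psmb9 is chr17:34187281-34187580 on the minus strand. Capitals mark a match, on either strand, to the antioxidant response element TGACNNNGC (Psmb5 and Psmb6), which is also the element of the factor encoded by Nfe2l1, to the STAT site TTCNNNGAA (Psmb8) or to the CCAAT box (Psmb9, read as ATTGG).
Psmb5: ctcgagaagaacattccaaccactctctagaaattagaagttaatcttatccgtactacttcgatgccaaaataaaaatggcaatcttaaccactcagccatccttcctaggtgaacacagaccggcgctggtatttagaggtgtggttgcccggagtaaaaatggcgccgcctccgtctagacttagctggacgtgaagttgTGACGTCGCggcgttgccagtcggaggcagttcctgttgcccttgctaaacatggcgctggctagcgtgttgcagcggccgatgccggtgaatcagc
Psmb6: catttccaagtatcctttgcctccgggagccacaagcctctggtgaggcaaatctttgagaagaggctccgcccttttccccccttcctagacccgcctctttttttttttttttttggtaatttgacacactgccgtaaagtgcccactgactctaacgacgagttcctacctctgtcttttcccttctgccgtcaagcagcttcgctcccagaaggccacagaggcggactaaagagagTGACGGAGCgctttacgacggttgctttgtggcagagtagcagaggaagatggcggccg
Psmb8: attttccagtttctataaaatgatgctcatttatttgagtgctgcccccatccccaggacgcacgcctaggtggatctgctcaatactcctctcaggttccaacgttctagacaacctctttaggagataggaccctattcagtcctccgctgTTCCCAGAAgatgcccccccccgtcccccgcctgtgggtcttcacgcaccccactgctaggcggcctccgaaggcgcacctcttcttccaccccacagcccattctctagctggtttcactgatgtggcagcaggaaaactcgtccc
Psmb9: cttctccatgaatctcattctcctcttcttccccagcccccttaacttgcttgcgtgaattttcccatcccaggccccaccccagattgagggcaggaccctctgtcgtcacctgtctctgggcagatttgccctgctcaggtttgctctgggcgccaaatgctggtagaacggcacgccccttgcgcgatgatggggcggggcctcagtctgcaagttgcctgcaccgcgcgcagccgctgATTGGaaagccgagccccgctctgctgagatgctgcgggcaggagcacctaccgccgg

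The matches begin 47 bases before the start in Psmb5, 9 before it in Psmb6, 97 before it in Psmb8 and 8 before it in Psmb9. Promoters were found for 41 of the 48 members. TGACNNNGC was in 6 of these (Psmb5, Psmb6, Psmc6, Psmd9, Psmd12 and Psme4), or in 13.6% of the members' 44 promoters, against 12.4% of all 32851 promoters of this length. TTCNNNGAA was in 6.82% of the members' promoters (Psmb8, Psmd2 and Psmg1) against 8.3% of all, CCAAT in 31.8% against 37.4%, and GAAANNGAA, the core of the interferon-stimulated response element, in 15.9% (7 members) against 8.56%. All 4 motifs were searched on both strands, and each promoter shown held 1 match to 1 of them, so none overlap there. Psmb8, Psmb9 and Psmb10 held no match to GAAANNGAA in this window. These are matches of letters and not binding sites.

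Levels are given as TPM (a share of transcripts, corrected for length) after scaling to a common upper quartile. They are levels of RNA, and the amount and make-up of the assembled proteasome were not measured in these libraries. The members were abundant in every group. In TB IL-2 their sum was 5893, 6155 and 6348 TPM, in TB IL-2nil it was 3780, 4006 and 3435 TPM, in TB+ IL-2 it was 6429, 6807 and 6765 TPM and in TB+ IL-2nil it was 4644, 4875 and 4127 TPM. All 6 libraries with IL-2 lay above all 6 without it. The ratio of the means was 1.64 at rest and 1.47 under PMA/I, and PMA/I itself changed the sum by a factor of 1.09 with IL-2 and 1.22 without it. Each of these 4 differences had an exact two-sided permutation P of 0.1, the smallest that 3 against 3 allows. Without scaling beyond TPM, the ratio of TB+ IL-2nil to TB IL-2nil turned to 0.827 and that of TB+ IL-2 to TB IL-2 was 1.009. The ratios of the groups with IL-2 to those without it were then 1.56 at rest and 1.91 under PMA/I.

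**Figure D1:**
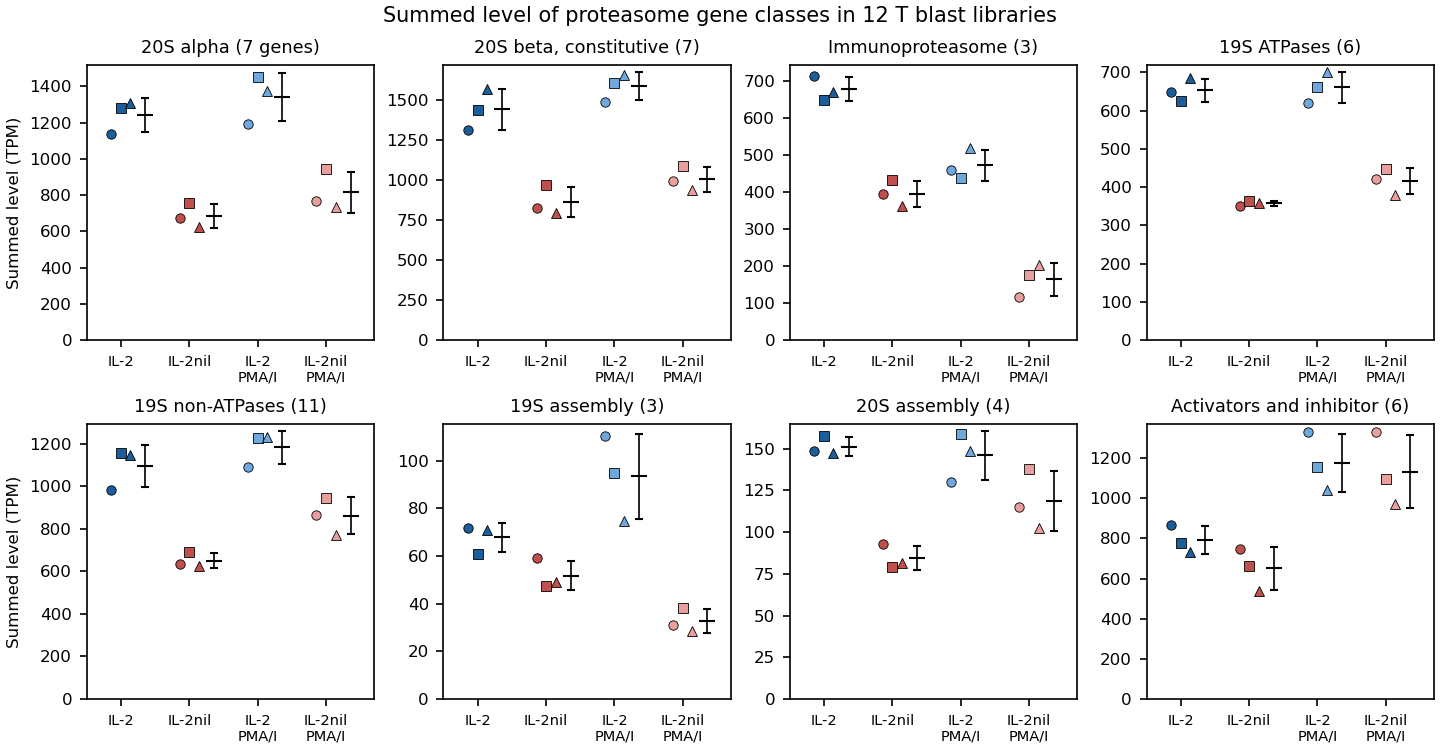
Summed level of each class of proteasome genes (y axes, TPM, from 0) in the 12 libraries, by group (x axes), with circles, squares and triangles for replicates 1, 2 and 3 and a bar for the mean and SD of 3. The triangles of IL-2nil and of IL-2 with PMA/I are the 2 libraries placed in each other's group, and the immunoproteasome sum falls from a mean of 677 TPM in TB IL-2 to 165 TPM in TB+ IL-2nil.

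Among the genes of the complex, transcript levels were less even in the libraries without IL-2 at rest. Across the 14 constitutive core subunits, which assemble in equal number, mean levels in TB IL-2 ran from 86.2 TPM (Psma3) to 302 TPM (Psmb4), with a coefficient of variation of 31.2%, 31.2% and 30.4% in the 3 libraries. In TB IL-2nil the coefficient was 41.6%, 44.9% and 47.2%, and Psmb1 at 226 TPM was the highest. Across the 17 subunits of the 19S regulator it was 23.5%, 18.4% and 23.5% in TB IL-2 and 28.1%, 35.2% and 33.8% in TB IL-2nil. The groups did not overlap in either set, at an exact permutation P of 0.1. Under PMA/I the means with and without IL-2 were 32.5% and 41.6% for the core (exact permutation P = 0.2, with the lower value with IL-2 in each of the 3 replicate numbers) and 21.2% and 31.6% for the regulator (exact permutation P = 0.1). Assembly factors were low by comparison, and Psmd9 (12.2 TPM in TB IL-2) and Psmd10 (19.7 TPM) were among the least abundant members in each group, while Psme1 and Psme2, the alpha and beta chains of the PA28 activator, and Psmb8 were among the most abundant at rest.

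Removal of IL-2 from resting cells was followed by lower transcript levels of most proteasome genes. In the comparison of TB IL-2 with TB IL-2nil, 36 members were higher with IL-2 and 2 were lower at an adjusted P under 0.05 (limma with Benjamini-Hochberg correction over 12442 genes), while 17.3% of all genes tested were higher and 22.3% lower. Both the count of members that were higher and the median over the members include Psmc3ip, here and in stimulated cells. That gene entered through the groups with IL-2, so its call is only a description. The median log2 difference was 0.79 over the members and -0.13 over all genes. With the labels as deposited, limma called 0 members in either direction (4 higher and 0 lower at an unadjusted P under 0.05) and the median was 0.47. Without both libraries 30 were higher and 2 lower. Without scaling beyond TPM 13 were higher and 1 lower. Apart from Psmc3ip, whose IL-2 difference is only a description, Psme2b alone passed the 3-fold change that the study required. Of all genes 7.42% did so in either direction.

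In the core, all 7 alpha subunits and 6 of 7 constitutive beta subunits rose with IL-2, with medians of 0.80 and 0.93. Psmb2, a beta subunit without protease activity, was at 160, 227 and 234 TPM in TB IL-2 and at 73.0, 107 and 83.3 TPM in TB IL-2nil. Its log2 difference was 1.23 ± 0.20 (SE; adjusted P = 0.00113 by limma), the largest of the core. The catalytic subunits Psmb5, Psmb6 and Psmb7, which carry the chymotrypsin-like, caspase-like and trypsin-like activities, differed by 0.99 ± 0.18 (adjusted P = 0.00192, and 0.0509 without scaling beyond TPM), 1.09 ± 0.13 (adjusted P = 0.000179) and 0.93 ± 0.15 (adjusted P = 0.000889). In none of these 4 genes did the groups overlap. The exons of Psmb5 overlap those of Mir686 on the same strand, so some of its reads may belong to either. Psmb1 was the exception in the core, at 198, 212 and 230 TPM with IL-2 and at 214, 249 and 216 TPM without it. Its log2 difference was -0.09 (95% interval -0.42 to 0.25, adjusted P = 0.691), and its sign turned with median-of-ratios scaling (0.0062).

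All 6 ATPases of the regulator (Psmc1 to Psmc6), which unfold the substrate, and 9 of 11 non-ATPase subunits rose, with medians of 0.89 and 0.82. Psmd1, a scaffold subunit of the base, was at 81.0, 79.3 and 89.9 TPM in TB IL-2 and at 36.1, 34.1 and 27.8 TPM in TB IL-2nil. Its log2 difference of 1.33 ± 0.18 (adjusted P = 0.00032) was the largest among subunits, and its exons overlap those of Armc9 on the same strand, so some reads may belong to either. Psmd7, a subunit of the lid that pairs with the deubiquitinase Psmd14, differed by 1.20 ± 0.20 (adjusted P = 0.00127). The ubiquitin receptor Psmd4 was the subunit of the regulator with the smallest difference, at 98.7, 98.0 and 105 TPM against 94.6, 101 and 94.4 TPM (0.05, 95% interval -0.21 to 0.31, adjusted P = 0.752), and its sign turned without scaling beyond TPM and with quantile normalization. Psmd8, of the lid, was the other that did not pass the test.

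Of the factors that build the complex, Psmg1, a chaperone of the alpha ring, was at 35.3, 45.0 and 41.0 TPM with IL-2 and at 17.4, 13.7 and 17.1 TPM without it (log2 difference 1.28 ± 0.24, adjusted P = 0.0022). Its partner Psmg2 and the chaperone Psmg4 also rose, and Psmg3 did not pass the test. Of the regulator's own chaperones only Psmd5 rose, while Psmd9 differed by 0.27 (adjusted P = 0.204) and Psmd10 by 0.01 (adjusted P = 0.98), the last with a sign that turned without scaling beyond TPM. Psmc3ip, the recombination cofactor, was at 10.9, 10.4 and 12.4 TPM against 2.41, 1.40 and 1.76 TPM, a log2 difference of 2.11 on the log2(TPM + 1) scale, which understates changes of genes this low.

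The 6 activator and inhibitor genes were mixed, with 1 higher and 2 lower. Psme4, which encodes the activator PA200, was at 26.1, 27.4 and 27.7 TPM in TB IL-2 and at 38.8, 44.5 and 37.5 TPM in TB IL-2nil, and fell with IL-2 by 0.55 ± 0.15 on the log2 scale (adjusted P = 0.0146). The call was lost when TB IL-2nil replicate 2 was left out (-0.48) and without scaling beyond TPM (-0.63). Psme2b was at 35.4, 15.9 and 18.1 TPM against 145, 86.8 and 48.2 TPM (-1.92 ± 0.47, adjusted P = 0.00871). It is a near-identical copy of Psme2, so reads could be divided between them and the values of both genes are uncertain. The mean of Psme2 was 300.7 TPM in TB IL-2 and 218.3 TPM in TB IL-2nil, and that of Psme2b was 23.1 and 93.2 TPM. Psme1 and Psme2 differed by 0.43 (adjusted P = 0.0547) and 0.47 (adjusted P = 0.0945) and did not pass the test, but with the replicate number as a block both did (adjusted P = 0.0212 and 0.00729), as did Psmd8. Of the 22 alternatives 5 called Psme1, among them median-of-ratios scaling (0.52, adjusted P = 0.0288) and no filter on low values (0.47, adjusted P = 0.0303), and 2 called Psme2. Psme3, the nuclear activator PA28 gamma, rose by 1.14 ± 0.20 (adjusted P = 0.0014). The inhibitor Psmf1 differed by -0.05 (adjusted P = 0.821), with a sign that turned with median-of-ratios scaling.

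**Figure D2:**
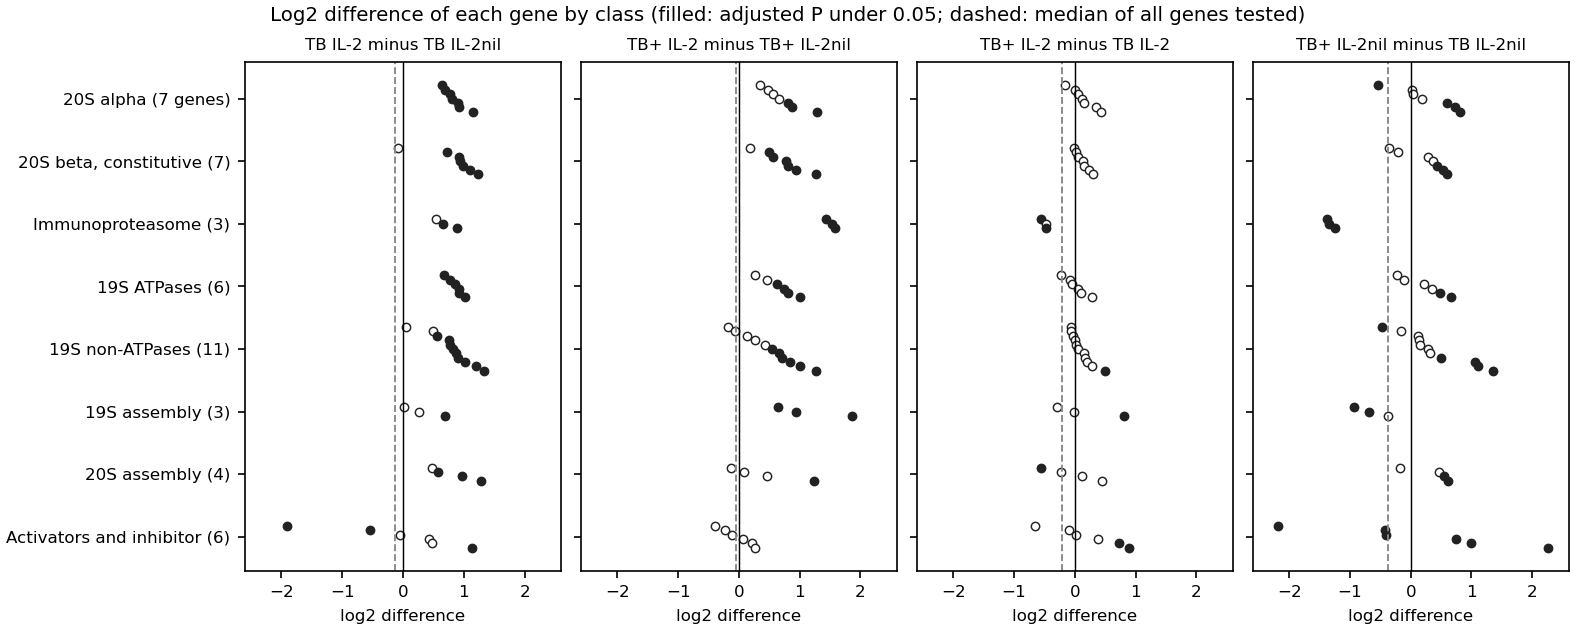
Log2 difference of each gene (x axes) by class (y axis) in 4 comparisons, with filled points for an adjusted P under 0.05 in limma, a solid line at 0 and a dashed line at the median of all 12442 genes tested. In TB IL-2 minus TB IL-2nil the 20S and 19S subunits lie to the right (28 of 31 called), and in TB+ IL-2nil minus TB IL-2nil the 3 immunoproteasome genes lie at -1.25 to -1.37 while most other subunits lie above the dashed line.

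In stimulated cells the same direction held for most members, and the 3 immunoproteasome genes had larger differences than most of the core. In the comparison of TB+ IL-2 with TB+ IL-2nil, 27 members were higher with IL-2 and 0 lower (0 lower at an unadjusted P under 0.05), against 12.9% and 8.4% of all genes. The median was 0.64 over the members and -0.04 over all genes. With the labels as deposited 1 was higher and 0 lower, and without both libraries 17 were higher and 0 lower. Psmd5 changed by more than 3-fold (all genes 3.62%), and so did Psmc3ip, whose IL-2 difference is only a description. The comparison of stimulated cells shares no library with the one at rest, but the cells of both had the same treatment with IL-2, and no test was made of their overlap.

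Of the constitutive core, 3 of 7 alpha and 6 of 7 beta subunits rose, as did 4 of 6 ATPases and 6 of 11 non-ATPase subunits of the regulator. Psmb5, Psmb6 and Psmb7 differed by 0.77 ± 0.18 (adjusted P = 0.0132), 0.81 ± 0.13 (adjusted P = 0.00192) and 0.56 ± 0.15 (adjusted P = 0.0225). The call of Psmb7 was lost without TB+ IL-2 replicate 2 (0.51), TB+ IL-2 replicate 3 (0.55), TB+ IL-2nil replicate 1 (0.51) or TB+ IL-2nil replicate 3 (0.51), and without both libraries of doubtful label (0.55, adjusted P = 0.0935). All 3 chaperones of the regulator rose. Psmd5, which holds the ATPase base during assembly, was at 84.0, 65.9 and 46.3 TPM in TB+ IL-2 and at 18.5, 18.4 and 13.6 TPM in TB+ IL-2nil (1.87 ± 0.24, adjusted P = 0.000585). The 3 libraries with IL-2 all lay above the 3 without it, although they varied among themselves. None of the 6 activator and inhibitor genes passed the test (0 at an unadjusted P under 0.05), with Psme1 at 0.08 (adjusted P = 0.78), Psme2 at 0.21 (adjusted P = 0.506) and Psme2b at -0.39 (adjusted P = 0.601). Psmc3ip differed by 1.93. Psma4, Psma5, Psma7 and Psmc5 passed the test with the replicate block alone.

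PMA/I moved few members when IL-2 was present. The 2 PMA/I comparisons share libraries with both IL-2 comparisons, so their values are set side by side and not as separate support. In the comparison of TB+ IL-2 with TB IL-2, 4 members were higher (Psme3, Psmd5, Psme2 and Psmd11) and 3 lower (Psmg2, Psmb8 and Psmb9), against 11.8% and 23.3% of all genes. None changed by more than 3-fold (all genes 7.04%). The median was 0.05 over the members and -0.22 over all genes. The split was 11 higher and 0 lower with median-of-ratios scaling, 1 and 0 without scaling beyond TPM, 2 and 2 with quantile normalization, 10 and 0 with no filter on low values and 3 and 0 with a pseudocount of 0.1. It was 0 and 0 with the labels as deposited (0 higher and 4 lower at an unadjusted P under 0.05) and 3 and 1 without both libraries. Among 48 members 31 changed sign with at least 1 scaling, and the median of the members moved to 0.30 with median-of-ratios scaling and to -0.16 with quantile normalization. The splits in other settings were not set against shares of all genes called in the same setting.

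Psme3 was at 101, 142 and 107 TPM in TB IL-2 and at 217, 226 and 202 TPM in TB+ IL-2 (0.89 ± 0.20, adjusted P = 0.00537), and this call held when each of the 12 libraries was left out in turn. Psme2 rose by 0.73 ± 0.21 (adjusted P = 0.0203) and Psmd5 by 0.81 ± 0.24 (adjusted P = 0.0223). Both calls were lost without TB IL-2 replicate 2, TB IL-2 replicate 3, TB+ IL-2 replicate 1 or TB+ IL-2 replicate 2, at values of 0.61 to 0.73 for Psme2 and 0.61 to 0.80 for Psmd5. They were also lost without scaling beyond TPM, and that of Psme2 with quantile normalization (0.38, adjusted P = 0.31). Psmd11, a subunit of the lid, differed by 0.50 ± 0.17 (adjusted P = 0.0429) and lost its call in 9 of the 12 fits that left out a library. It kept it without TB IL-2 replicate 2, TB+ IL-2nil replicate 1 or TB+ IL-2nil replicate 3. The call was also lost without both libraries of doubtful label (adjusted P = 0.0795), without scaling beyond TPM (0.275), with quantile normalization (0.168) and with a pseudocount of 0.1 (0.0527). Psme1, with 0.39 (adjusted P = 0.0868), passed with the replicate block (adjusted P = 0.0359), with median-of-ratios scaling (0.63, adjusted P = 0.0139) and with no filter on low values (0.54, adjusted P = 0.0208). Psme2b, with -0.65 (adjusted P = 0.314), passed with the replicate block (adjusted P = 0.0384). The constitutive catalytic subunits differed by 0.15 (Psmb5), 0.14 (Psmb6) and 0.23 (Psmb7), with adjusted P from 0.251 to 0.546 and signs that turned with quantile normalization. Psmb6 and Psmb7 were called higher with median-of-ratios scaling (0.39 and 0.48, adjusted P = 0.0489 and 0.0409) and with no filter on low values (0.29 and 0.38, adjusted P = 0.0258 and 0.0462). Psmc3ip differed by -0.68 (adjusted P = 0.11), and by -1.05 without both libraries of doubtful label (adjusted P = 0.0143).

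After IL-2 withdrawal members were again called in both directions under PMA/I, and their counts were not tested against those with IL-2. In the comparison of TB+ IL-2nil with TB IL-2nil, 17 members were higher and 10 lower, against 20.1% and 41.1% of all genes. The median was 0.20 over the members and -0.38 over all genes, so the members stood 0.58 above the median gene. These counts depend on the scaling, and 24 of 48 members changed sign with at least 1 scaling. The median of all genes moved to -0.78 without scaling beyond TPM, to -0.14 with quantile normalization and to -0.08 with median-of-ratios scaling, and the split of the members became 2 higher and 15 lower, 11 and 13, and 29 and 5. With no filter on low values it was 21 and 6. With the labels as deposited it was 0 and 3 (2 higher at an unadjusted P under 0.05), and without both libraries 11 and 8. Shares of all genes called in these other settings are not given here, so the splits were not set against them.

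Psme3 rose most. It was at 58.9, 46.4 and 50.6 TPM in TB IL-2nil and at 298, 274 and 193 TPM in TB+ IL-2nil, a log2 difference of 2.26 ± 0.20 (adjusted P = 5.93e-06), and it alone of the members was higher by more than 3-fold, while Psme2b alone was lower by as much (all genes 18.5% in either direction). Of the 11 non-ATPase subunits of the regulator 4 rose, 1 fell and 6 did not pass the test. Psmd7 was at 37.8, 31.6 and 31.6 TPM against 83.1, 111 and 71.7 TPM (1.35 ± 0.20, adjusted P = 0.000193). Psmd11 differed by 1.11 ± 0.17 (adjusted P = 0.000218) and Psmd12 by 1.06 ± 0.17 (adjusted P = 0.000256). Without scaling beyond TPM Psmd11 (0.56, adjusted P = 0.0735) and Psmd12 (0.52, adjusted P = 0.10) lost the call, and Psme3 and Psmd7 kept it under each of the 3 other scalings. The PA28 chains Psme1 and Psme2 rose by 0.74 ± 0.16 (adjusted P = 0.00223) and 0.99 ± 0.21 (adjusted P = 0.00185). Neither was called without scaling beyond TPM (0.19 and 0.43) or with quantile normalization (0.18 and 0.43). The rise of Psme2, from a mean of 218.3 to 432.5 TPM, carries the doubt over reads shared with Psme2b. The mean of Psme2b went from 93.2 to 19.1 TPM in the same comparison. Of the catalytic subunits Psmb6 (0.43 ± 0.13, adjusted P = 0.0142) and Psmb7 (0.60 ± 0.15, adjusted P = 0.00455) rose and Psmb5 (0.37, adjusted P = 0.0985) did not pass the test. Psmb7 was at 0.053 without scaling beyond TPM and 0.19 with quantile normalization, and Psmb6 at 0.19 with the latter, with no call. The call of Psmb6 was also lost without both libraries of doubtful label (0.40, adjusted P = 0.0577). Without scaling beyond TPM the sign turned for Psmb6 (-0.12) and for Psmb5 (-0.18), and also for Psmb4 (-0.02), Psmc2 (-0.07) and Psmd1 (-0.04), which had been called higher.

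Among the members that fell, the regulator chaperone Psmd10 (gankyrin) was at 21.6, 18.7 and 18.1 TPM in TB IL-2nil and at 8.04, 12.8 and 8.94 TPM in TB+ IL-2nil (-0.93 ± 0.19, adjusted P = 0.0013). Its companion Psmd9 fell as well (-0.69 ± 0.16, adjusted P = 0.0031), as did the inhibitor Psmf1 (-0.42 ± 0.16, adjusted P = 0.0378) and the activator Psme4 (-0.41 ± 0.15, adjusted P = 0.0347). Psme2b fell from 145, 86.8 and 48.2 TPM to 28.3, 11.6 and 17.5 TPM (-2.18 ± 0.47, adjusted P = 0.00214), with the doubt over its reads given above. Psmc3ip differed by -0.50 (adjusted P = 0.177). The other members that fell were the alpha subunit Psma1 (-0.54), the lid subunit Psmd13 (-0.47) and the 3 immunoproteasome genes. With median-of-ratios scaling, where 5 were called lower, the differences were -0.33 for Psmd9, -0.048 for Psmf1, -0.022 for Psme4, -0.14 for Psma1 and -0.079 for Psmd13, and with quantile normalization those of Psmd9 and Psmf1 were -0.11 and -0.074.

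Levels of the immunoproteasome genes differed with IL-2 and with PMA/I. Psmb8, the inducible chymotrypsin-like subunit, was at 436, 397 and 424 TPM in TB IL-2 and at 225, 238 and 216 TPM in TB IL-2nil. Under PMA/I it was at 270, 267 and 322 TPM in TB+ IL-2 and at 68.7, 104 and 120 TPM in TB+ IL-2nil. Each of the 4 groups was apart from the other 3, with the order TB IL-2, TB+ IL-2, TB IL-2nil and TB+ IL-2nil. The IL-2 difference was 0.88 ± 0.19 at rest (adjusted P = 0.00463) and 1.58 ± 0.19 under PMA/I (adjusted P = 0.000463). The call at rest was lost without scaling beyond TPM (0.80, adjusted P = 0.128) and with quantile normalization (0.63, adjusted P = 0.0568).

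Psmb9, which replaces Psmb6, was at 182, 151 and 152 TPM in TB IL-2, 103, 118 and 86.7 TPM in TB IL-2nil, 124, 112 and 114 TPM in TB+ IL-2 and 34.0, 43.2 and 42.3 TPM in TB+ IL-2nil. TB IL-2nil and TB+ IL-2 overlapped, and the other groups did not. The IL-2 difference was 0.66 ± 0.16 at rest (adjusted P = 0.00889, but 0.0523 without both libraries of doubtful label and 0.221 without scaling beyond TPM) and 1.53 ± 0.16 under PMA/I (adjusted P = 0.000234). Psmb10, which replaces Psmb7, was at 94.2, 101 and 94.0 TPM in TB IL-2, 66.0, 74.7 and 58.4 TPM in TB IL-2nil, 65.5, 60.2 and 83.5 TPM in TB+ IL-2 and 12.9, 29.6 and 39.9 TPM in TB+ IL-2nil. Its IL-2 difference did not pass the test at rest (0.54 ± 0.32, adjusted P = 0.201) and was 1.44 ± 0.32 under PMA/I (adjusted P = 0.0101), and the latter missed the threshold without both libraries (adjusted P = 0.0602). TB+ IL-2nil replicate 1, the library with the highest Rpph1 and Rmrp, was the lowest of its group for all 3 genes.

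**Figure D3:**
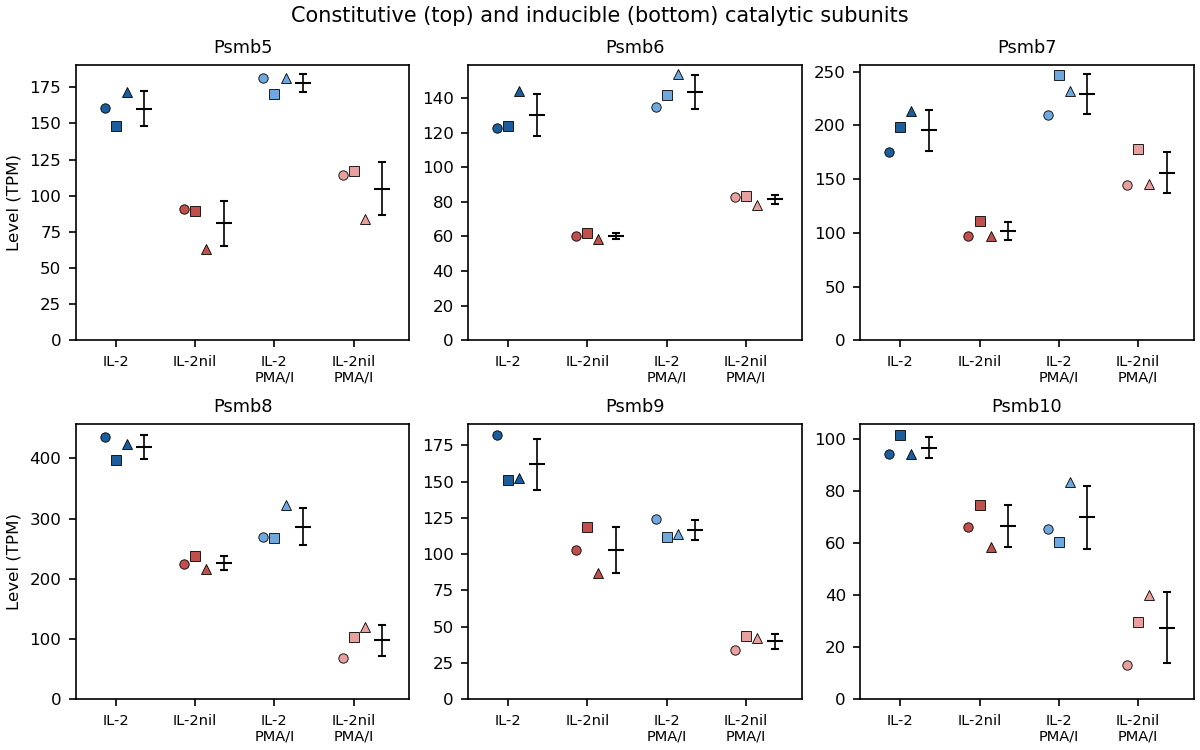
Level (y axes, TPM, from 0) of the constitutive catalytic subunits (top) and of the inducible subunits that replace them (bottom) in the 4 groups (x axes), with circles, squares and triangles for replicates 1, 2 and 3 and the mean and SD of 3. Psmb5, Psmb6 and Psmb7 are low in both groups without IL-2, and Psmb8, Psmb9 and Psmb10 are lowest where IL-2 was absent and PMA/I was added (means of 97.3, 39.8 and 27.4 TPM).

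PMA/I after withdrawal lowered all 3 genes, by 1.25 ± 0.19 for Psmb8 (adjusted P = 0.000232), 1.34 ± 0.16 for Psmb9 (adjusted P = 4.69e-05) and 1.37 ± 0.32 for Psmb10 (adjusted P = 0.00321), so that their sum in TB+ IL-2nil was 0.416 times that in TB IL-2nil. These 3 were also the members called with the labels as deposited, and they were lower under each scaling. With IL-2 the differences were -0.55 ± 0.19 (adjusted P = 0.0457), -0.47 ± 0.16 (adjusted P = 0.0459) and -0.48 ± 0.32 (adjusted P = 0.272). The calls of Psmb8 and Psmb9 lay close to the threshold, and each was lost in 9 of the 12 fits that left out a library, with values of -0.64 to -0.50 and -0.51 to -0.38. Both were also lost with median-of-ratios scaling (-0.30 and -0.22), without scaling beyond TPM, with a pseudocount of 0.1, with no filter on low values and without both libraries of doubtful label. Psmb8 kept its call without TB+ IL-2 replicate 3, TB+ IL-2nil replicate 1 or TB+ IL-2nil replicate 3, and Psmb9 without TB IL-2nil replicate 2, TB IL-2nil replicate 3 or TB+ IL-2nil replicate 1. The larger loss without IL-2 was tested as an interaction, with 0.69 ± 0.27 for Psmb8 (adjusted P = 0.16), 0.87 ± 0.23 for Psmb9 (adjusted P = 0.0585) and 0.90 ± 0.45 for Psmb10 (adjusted P = 0.261). With the replicate block Psmb9 passed (adjusted P = 0.039) and the other genes did not (0.0964 and 0.176). Psmb9 was under the threshold in 3 of 22 alternatives, at an adjusted P of 0.108 without both libraries of doubtful label and 0.914 with the labels as deposited, so a difference between the PMA/I responses with and without IL-2 was not established for any of the 3 genes.

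Because TPM values of 2 genes in 1 library share any scaling, the inducible subunit was also expressed as a share of its catalytic pair, which no scaling by 1 factor per library can alter, whereas quantile normalization can. Psmb8 made up 73.1%, 72.8% and 71.1% of the sum of Psmb8 and Psmb5 in TB IL-2 and 71.3%, 72.7% and 77.4% in TB IL-2nil. At rest these groups overlapped (difference -1.44 percentage points, exact permutation P = 0.7). The share was 59.8%, 61.0% and 64.0% in TB+ IL-2 and 37.6%, 47.0% and 58.8% in TB+ IL-2nil. With and without IL-2, PMA/I lowered it in every library relative to every unstimulated library, by 10.8 and by 26.0 percentage points.

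Psmb9 was 55.4% ± 4.25 (SD, n = 3) of its pair with Psmb6 in TB IL-2 and 62.8% ± 2.93 in TB IL-2nil, with 1 library of each group within the range of the other, and 44.8% ± 2.79 in TB+ IL-2 and 32.8% ± 3.20 in TB+ IL-2nil. Psmb10 was 33.1% ± 2.28 of its pair with Psmb7 in TB IL-2, 39.4% ± 1.65 in TB IL-2nil, 23.3% ± 3.42 in TB+ IL-2 and 14.7% ± 6.69 in TB+ IL-2nil. At rest the share of Psmb10 was thus higher without IL-2 in all 3 libraries, by 6.28 percentage points. Under PMA/I the shares of Psmb8 and Psmb9 were higher with IL-2 in all 3 libraries, by 13.8 and 12.02 percentage points. For all 3 pairs the lowest share in TB+ IL-2nil was that of replicate 1 (37.6%, 29.2% and 8.18%). The IL-2 differences under PMA/I are smaller without this library. All differences between PMA/I and rest for the 3 pairs had an exact two-sided permutation P of 0.1, the smallest 3 against 3 allows, as did the IL-2 differences under PMA/I of Psmb8 and Psmb9 and that of Psmb10 at rest. The IL-2 differences of Psmb9 at rest and of Psmb10 under PMA/I had an exact permutation P of 0.2, although both had the same sign within all 3 replicate numbers. Over these 12 comparisons none could pass a threshold of 0.05.

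**Figure D4:**
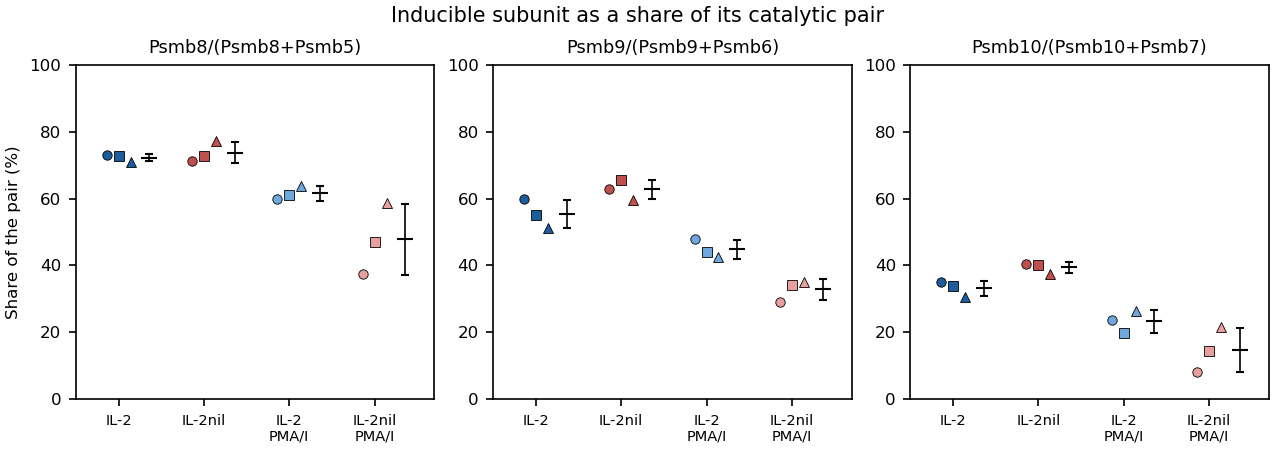
Inducible subunit as a percentage of its catalytic pair (y axes, 0 to 100) in the 4 groups (x axes), computed within each library, with circles, squares and triangles for replicates 1, 2 and 3 and the mean and SD of 3. All PMA/I libraries lie below the unstimulated libraries of the same IL-2 state, and the lowest means are 47.8%, 32.8% and 14.7% in TB+ IL-2nil.

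Whether the response to PMA/I depended on IL-2 was tested for every member as the interaction, the response with IL-2 minus the response without it. There were 0 members with a positive and 3 with a negative interaction, namely Psmd7, Psme3 and Psmg2, against 1.57% and 2.66% of all genes (limma, with 6 positive and 9 negative at an unadjusted P under 0.05). The median was -0.16 over the members and 0.16 over all genes. With the replicate block 4 were positive (Psmb9, Psmd5, Psmd9 and Psme2b) and 4 negative (the same 3 and Psmd12). With the labels as deposited and also without both libraries limma called none in either direction (2 and 2, and 4 and 4, at an unadjusted P under 0.05), nor without scaling beyond TPM (8 and 2).

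Psmd7 is the plainest case. Its 4 groups were at 64.6, 99.4 and 74.8 TPM (TB IL-2), 37.8, 31.6 and 31.6 TPM (TB IL-2nil), 70.9, 85.1 and 74.4 TPM (TB+ IL-2) and 83.1, 111 and 71.7 TPM (TB+ IL-2nil). The 3 TB IL-2nil libraries were below the other 9, which overlapped. The interaction was -1.38 ± 0.29 (adjusted P = 0.0293). For Psme3 it was -1.36 ± 0.28 (adjusted P = 0.0277), and its levels under PMA/I overlapped between the IL-2 states. Psmg2 was at 37.1, 36.1 and 38.2 TPM in TB IL-2, 22.3, 15.6 and 17.9 TPM in TB IL-2nil, 23.0, 23.8 and 28.2 TPM in TB+ IL-2 and 27.2, 34.7 and 21.8 TPM in TB+ IL-2nil, so that PMA/I was followed by less of it with IL-2 (-0.56 ± 0.19, adjusted P = 0.0405) and more without (0.55 ± 0.19, adjusted P = 0.026), the latter with groups that overlapped. The call with IL-2 was lost without any 1 of the 3 TB IL-2 libraries, TB IL-2nil replicate 3, TB+ IL-2 replicate 1 or TB+ IL-2 replicate 2 (values of -0.64 to -0.50 over all 12 fits), and also with each other scaling (-0.32 with median-of-ratios scaling), with a pseudocount of 0.1, with no filter on low values (-0.41) and without both libraries of doubtful label. The difference without IL-2 was 0.016 without scaling beyond TPM. Its interaction was -1.11 ± 0.27 (adjusted P = 0.0444). The calls of Psmd7 and Psme3 held in 3 of the 12 fits that left out a library and that of Psmg2 in 2. All 3 held without TB IL-2nil replicate 1 or TB+ IL-2nil replicate 3.

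**Figure D5:**
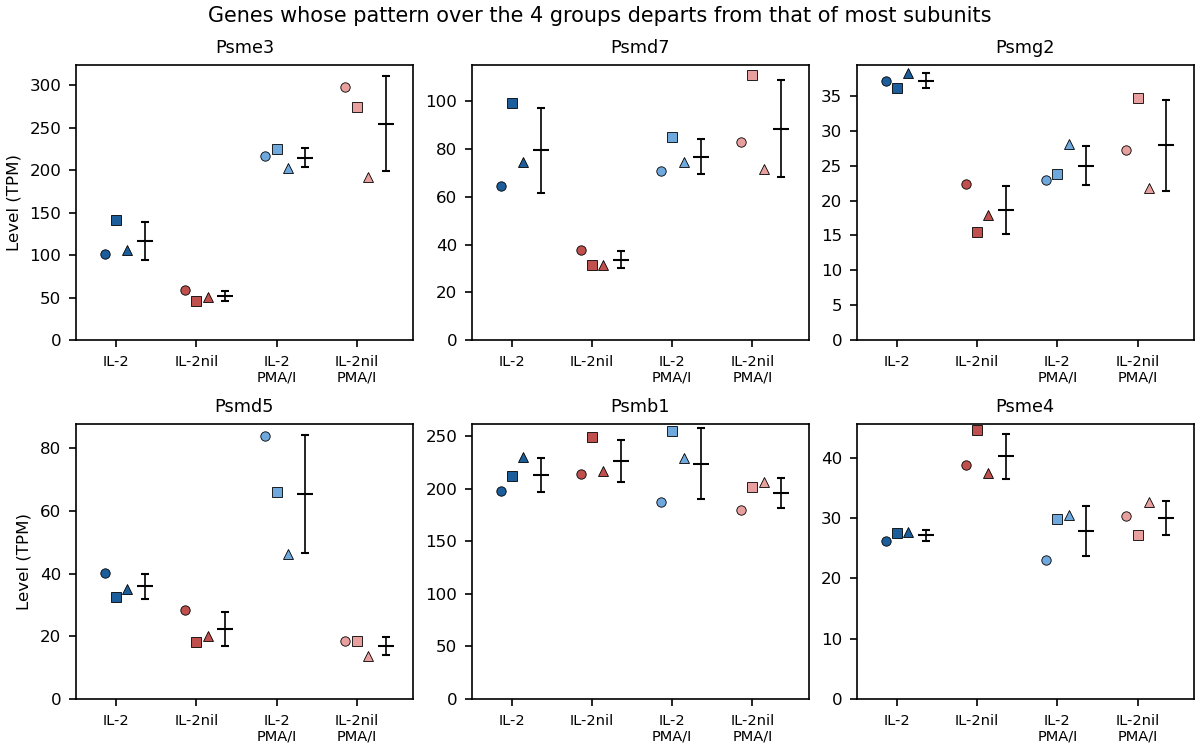
Level (y axes, TPM, from 0) in the 4 groups (x axes) of 6 members chosen after their values were seen, with circles, squares and triangles for replicates 1, 2 and 3 and the mean and SD of 3. Psme3, Psmd7 and Psmg2 have their lowest mean in TB IL-2nil (52.0, 33.7 and 18.6 TPM), Psmd5 its highest in TB+ IL-2 (65.4 TPM) and Psme4 its highest in TB IL-2nil (40.2 TPM), while Psmb1 is between 196 and 226 TPM in each.

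Other genes of the pathway gave a mixed picture. Of 25 genes that act with the proteasome, 24 were in the files and tested, and with IL-2 at rest 8 were higher and 0 lower (11 and 1 at an unadjusted P under 0.05), beside 17.3% and 22.3% of all genes. Pomp, the maturation factor of the core, followed the subunits, at 198, 218 and 239 TPM in TB IL-2 and at 105, 132 and 124 TPM in TB IL-2nil (0.85 ± 0.14, adjusted P = 0.00113, and 0.0525 without scaling beyond TPM). The deubiquitinases Uchl5 and Usp14, which sit on the regulator, differed by 1.80 ± 0.28 (adjusted P = 0.00073) and 1.32 ± 0.17 (adjusted P = 0.000276). In stimulated cells 6 were higher with IL-2 and 0 lower (8 and 0 unadjusted, beside 12.9% and 8.4% of all genes), again with Pomp (0.66 ± 0.14, adjusted P = 0.00852) and Uchl5 (1.71 ± 0.28, adjusted P = 0.00201), and with Ngly1, which activates the product of Nfe2l1 by removing its sugars (0.9996 ± 0.18, adjusted P = 0.00331).

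Nfe2l1, the transcription factor that raises proteasome genes when activity falls short, was called with PMA/I but not with IL-2. It was at 31.2, 24.4 and 20.4 TPM in TB IL-2, 31.5, 24.7 and 17.8 TPM in TB IL-2nil, 71.4, 69.2 and 51.1 TPM in TB+ IL-2 and 97.7, 76.8 and 64.7 TPM in TB+ IL-2nil. PMA/I raised it by 1.31 ± 0.25 with IL-2 (adjusted P = 0.00227) and 1.67 ± 0.25 without it (adjusted P = 0.000169), while the IL-2 differences were 0.05 (adjusted P = 0.894) and -0.31 (adjusted P = 0.4), with signs that turned without scaling beyond TPM. Under PMA/I with IL-2, 3 of the 24 were higher (Nfe2l1, the proteasome activator Zfand5 at 0.65 and Ngly1 at 0.64) and 1 lower (Akirin2, which imports proteasomes into the nucleus, at -0.53), beside 11.8% and 23.3% of all genes. The calls of Zfand5, Ngly1 and Akirin2 were lost without scaling beyond TPM, and that of Akirin2 also with median-of-ratios scaling, with no filter on low values and without both libraries of doubtful label. They held in 18, 17 and 13 of the 22 alternatives. Without IL-2, beside 20.1% and 41.1% of all genes, 9 were higher, led by Nfe2l1, the shuttle factor Ubqln4 (1.27 ± 0.28, adjusted P = 0.00234) and the regulator-bound thioredoxin Txnl1 (1.14 ± 0.17, adjusted P = 0.000158), and 2 lower, Akirin2 (-0.71) and the Vcp cofactor Ufd1 (-0.62). The calls of Ubqln4 and Txnl1 were lost without scaling beyond TPM, and those of Akirin2 and Ufd1 with median-of-ratios scaling. Pomp differed by 0.17 (adjusted P = 0.392) with IL-2 and 0.36 (adjusted P = 0.0475) without it, the latter with a sign that turned without scaling beyond TPM and with quantile normalization. That call held in 6 of the 22 alternatives and was lost without both libraries of doubtful label (adjusted P = 0.10), with a pseudocount of 0.1 (0.0561), with a minimum of 1 TPM in at least 3 libraries (0.0554) and in 10 of the 12 fits that left out a library.

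Of the 11 genes of antigen processing and its regulation, some were called under PMA/I, and 0 in either IL-2 comparison before the replicate block was added. With IL-2 at rest, limma called 0 of them in either direction (1 higher and 0 lower at an unadjusted P under 0.05, beside 17.3% and 22.3% of all genes called), and in stimulated cells again 0 (2 and 1, beside 12.9% and 8.4%). With the replicate block 1 was higher and 2 lower at rest, and 0 higher and 2 lower in stimulated cells. Under PMA/I 1 was higher and 2 lower with IL-2 (11.8% and 23.3% of all genes) and 2 higher and 3 lower without it (20.1% and 41.1%). Tap1, a chain of the peptide transporter whose gene lies beside Psmb9, differed by 0.04 (adjusted P = 0.929) and 0.27 (adjusted P = 0.487), and the interferon regulator Irf1 by 0.01 (adjusted P = 0.998) and -1.30 (adjusted P = 0.114, and 0.0489 with the replicate block). Under PMA/I Ifng, the gene of interferon-gamma, rose from 1.46, 3.86 and 4.14 TPM to 1252, 3803 and 1230 TPM with IL-2 and from 1.11, 0.718 and 2.23 TPM to 716, 1316 and 858 TPM without it. The log2 differences were 8.84 ± 0.46 (adjusted P = 3.33e-07) and 8.68 ± 0.46 (adjusted P = 2.63e-07). Over the same 2 h the transporter chain Tap2 differed by -0.57 ± 0.16 (adjusted P = 0.0179) and -1.09 ± 0.16 (adjusted P = 0.000151), the former not called with median-of-ratios scaling or without scaling beyond TPM. Without IL-2, Tapbp, the tapasin of the peptide loading complex, also fell (-0.54 ± 0.20, adjusted P = 0.0383, but -0.14 and 0.564 with median-of-ratios scaling and -0.34 and 0.177 with no filter on low values) and the peptide-trimming Erap1 rose (0.48 ± 0.16, adjusted P = 0.0231), the latter with a sign that turned without scaling beyond TPM and no call without both libraries of doubtful label (adjusted P = 0.0731) or with quantile normalization (0.27, adjusted P = 0.157). The call of Erap1 was also lost without TB IL-2nil replicate 1, TB+ IL-2nil replicate 2 or the library labelled TB+ IL-2 replicate 3. That of Tapbp held in 14 of the 22 alternatives. Tap1 differed by -0.16 (adjusted P = 0.669) and -0.39 (adjusted P = 0.206). The latter passed with the replicate block (adjusted P = 0.0428), without scaling beyond TPM (-0.94, adjusted P = 0.042) and with quantile normalization (-0.79, adjusted P = 0.029), and was 0.012 with median-of-ratios scaling. Irf1 differed by -0.34 (adjusted P = 0.659) and 0.97 (adjusted P = 0.144), the latter 1.55 and called without both libraries of doubtful label (adjusted P = 0.0274).

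Markers of the labelled cell type were present. Of 6 CD4 T cell markers 5 were in the files, with a sum of 1134 to 1200 TPM in TB IL-2, 1848 to 2044 TPM in TB IL-2nil, 1068 to 1177 TPM in TB+ IL-2 and 1422 to 1702 TPM in TB+ IL-2nil, and Cd3e the most abundant at 275 to 479 TPM. B cell markers (4 of 4), of which Cd79a was the most abundant at 1.45 to 9.04 TPM, summed to 5.94 to 10.4 TPM in TB IL-2, 23.2 to 29.6 TPM in TB IL-2nil, 2.36 to 3.31 TPM in TB+ IL-2 and 5.49 to 12.7 TPM in TB+ IL-2nil. The sums of B cell and of CD4 T cell markers were thus both higher without IL-2, where most proteasome genes were lower. Their part in the results was not tested. CD8 T cell markers (2 of 2, Cd8b1 the most abundant) summed to 6.91 to 31.9 TPM over the 12 libraries, 3 of 5 myeloid markers (led by Cd68) to 1.57 to 4.88 TPM and 3 of 4 dendritic cell markers (led by Xcr1) to 0.581 to 3.18 TPM. The CD8 sum was highest in replicate 1 of each group (31.9, 22.1, 29.5 and 22.0 TPM in TB IL-2, TB IL-2nil, TB+ IL-2 and TB+ IL-2nil). In replicates 2 and 3 it was higher without IL-2 and in replicate 1 lower, and its part was not tested. The dendritic cell markers were also higher without IL-2, at 0.581 to 1.16 TPM in TB IL-2, 1.964 to 2.07 TPM in TB IL-2nil, 0.907 to 1.42 TPM in TB+ IL-2 and 2.30 to 3.18 TPM in TB+ IL-2nil, and their part in the results was not tested either. No NK cell marker passed the filter, and Ncr1 is listed at 0 in all 12 libraries.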

How the data were processed

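The 12 libraries were rRNA-depleted and directional. Read trimming by the authors used Trimmomatic 0.32, alignment (build mm9) used HISAT2 2.1.0, and gene values came from StringTie 1.3.3 with RefSeq models. The deposited values are FPKM, although the methods speak of TPM. No columns of other samples were present. The study's list of differentially expressed genes was used only to place 2 libraries, and its fold changes and P-values were not used.

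FPKM values were converted to TPM (sum of 1000000 per library), and a gene was tested if any library held it above 1 TPM (12442 of 24439). They were scaled to a common 75th percentile and fitted as log2(TPM + 1) with limma 3.58.1 in R 4.3.3, as 4 groups of 3 with 8 residual degrees of freedom besides the moderation. Benjamini-Hochberg adjustment covered all genes tested, at 0.05, and the 3-fold change is the study's. Fold changes on this scale understate those of low genes. Shares of all genes called are given for the limma fit described here alone. Counts in other settings or at an unadjusted P were not set against a share of their own. Shares of catalytic pairs, sums and coefficients of variation were compared by exact two-sided permutation tests. The limma fit was tested on simulated data, and the other steps ran under Python 3.11.15 with scipy 1.17.1, matplotlib 3.10.9, pandas 2.3.3 and numpy 2.4.6. Depth is known only in relative terms, so no counting intervals are given.

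Members, gene lists, markers and the placement of the 2 libraries were chosen with earlier results of these data known. Test values are given in each comparison for Psmb5 to Psmb10, Psme1, Psme2, Psme2b, Psmc3ip, Pomp, Nfe2l1, Tap1 and Irf1, for the 5 members with the largest difference in each direction among those called with groups that do not overlap, for members past 3-fold, and for the 3 list genes with the largest difference in each direction, of which some are not reported here. Other members with test values, such as Psmb1, Psmd4, Psmd9, Psmd10, Psmd11, Psme4 and Psmf1, were chosen after their values were seen. Replicate numbers come from the labels, which do not say what they share. Deviations of same-numbered libraries from their group means, with the 2 libraries placed as above, correlated at 0.101 to 0.531 in all 18 pairs of groups, so a fit with the replicate number as a block was added. Alternatives were the labels as deposited, leaving out both doubtful libraries or each library in turn, other scalings, filters, a pseudocount of 0.1 and limma with trend and robust settings.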

Additional observations from a re-analysis of the deposited data

Results flagged for a closer look

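For 3 members the response to PMA/I with IL-2 differed from that without it by the interaction test in limma (Benjamini-Hochberg adjustment over 12442 genes). All 3 were negative, while 1.57% of all genes were called positive and 2.66% negative. The difference was -1.38 on the log2 scale for Psmd7 (adjusted P = 0.0293), with responses of -0.03 with IL-2 and 1.35 without it. It was -1.36 for Psme3 (adjusted P = 0.0277), with responses of 0.89 and 2.26. It was -1.11 for Psmg2 (adjusted P = 0.0444), with responses of -0.56 and 0.55. Without both libraries of doubtful label the differences were -1.31, -1.30 and -1.17 and none passed the threshold (adjusted P = 0.11, 0.11 and 0.12). None passed with the labels as deposited either (adjusted P = 0.914 for each), nor without scaling beyond TPM (adjusted P = 0.263, 0.254 and 0.411). Most of the fits that left out 1 library also lost each call.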

How the results depend on the processing

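Depth is known only in relative terms, and 3 libraries a group allow no exact permutation P under 0.1. Of the settings tried, the labels as deposited changed the most calls. Of 109 named test values, 33 kept direction and side of the threshold with the labels as deposited, 64 lost the call and 12 turned, while without both libraries 89, 14 and 4 did so and 2 gained the call. The cause of the changes below was not tested. Counts of members below stand without the share of all genes called in the same setting.

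With the labels as deposited, members called higher and lower were 0 and 0 for IL-2 at rest, 1 higher for IL-2 in stimulated cells, 0 and 0 for PMA/I with IL-2, 0 and 3 for PMA/I without IL-2 and 0 lower for the interaction. Signs turned for Nfe2l1 at rest (-0.44), for Psme1 (-0.19), Psme2 (-0.21) and Psme2b (0.33) with IL-2 in stimulated cells, for Psmb5 (-0.35), Psmb6 (-0.32), Psmb7 (-0.18), Psme2b (0.07), Pomp (-0.147) and Irf1 (0.20) under PMA/I with IL-2 and for Psmb5 (-0.13) and Psmb6 (-0.035) under PMA/I without it. The share of Psmb8 in its pair differed by 3.03 percentage points at rest and -6.3 under PMA/I with IL-2. That of Psmb9 differed by -1.65 at rest, 17.8 with IL-2 in stimulated cells, and -4.83 and -24.2 under PMA/I with and without IL-2, and that of Psmb10 by -2.58 at rest and -6.14 under PMA/I with IL-2. Without both libraries 17 members were higher with IL-2 in stimulated cells, 1 was lower under PMA/I with IL-2, 11 were higher under PMA/I without IL-2 and 0 had a negative interaction. Nfe2l1 (-0.16) and Tap1 (-0.062) turned at rest, as did the share of Psmb8 (0.342 percentage points), and Psme2 (0.004) and Nfe2l1 (0.003) in the interaction.

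Without scaling beyond TPM, 13 members were higher and 1 lower with IL-2 at rest, 1 and 0 under PMA/I with IL-2, 2 higher under PMA/I without it and 0 with a negative interaction. Signs turned at rest for Nfe2l1 (-0.027), Tap1 (-0.043) and Irf1 (-0.071), in stimulated cells for Nfe2l1 (0.08), under PMA/I without IL-2 for Psmb5 (-0.18), Psmb6 (-0.12), Pomp (-0.19) and Erap1 (-0.07), and in the interaction for Psmb5 (0.25), Psmb6 (0.19), Psmb7 (0.10), Psme1 (0.12), Psme2 (0.22), Psmc3ip (0.053), Pomp (0.28) and Nfe2l1 (0.11). With quantile normalization 2 members were higher under PMA/I with IL-2 and 11 without it, and signs turned for Tap1 (-0.10) and Irf1 (-0.12) at rest, for Psmb5 (-0.15), Psmb6 (-0.096), Psmb7 (-0.10) and Pomp (-0.16) under PMA/I with IL-2 and for Pomp (-0.07) without it. With median-of-ratios scaling 11 were higher and 0 lower under PMA/I with IL-2 and 29 and 5 without it, and Tap1 turned in both (0.092 and 0.012). The median of all genes moved from -0.13 to between -0.19 and -0.06 at rest and from 0.16 to between 0.04 and 0.51 in the interaction. With no filter on low values 10 were higher and 0 lower under PMA/I with IL-2 and 6 lower without it. With a pseudocount of 0.1 none were lower under PMA/I with IL-2 (0) and Psmc3ip turned in the interaction (0.036). With trend and robust settings 1 had a positive interaction.

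With the replicate number as a block, 4 members had a positive interaction, 8 of the 109 named values gained the call, and no other named call changed.

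Over the 12 fits that left out 1 library each, 1 to 2 members were lower with IL-2 at rest (1 without TB IL-2nil replicate 2). Under PMA/I with IL-2, 1 to 5 were higher (1 without TB IL-2 replicate 3) and 0 to 3 lower (0 without TB IL-2 replicate 1, among others). Under PMA/I without IL-2, 6 to 10 were lower (6 without TB+ IL-2nil replicate 1). In the interaction 0 to 1 were positive and 0 to 5 negative (0 without TB IL-2 replicate 2, among others, and 5 without TB+ IL-2nil replicate 3). Values that turned ran from -0.16 to 0.24 (Nfe2l1), -0.18 to 0.16 (Tap1) and -0.43 to 0.60 (Irf1) at rest, from -0.039 to 0.18 (Psme1) in stimulated cells, from -0.41 to 0.061 (Tap1) and -0.745 to 0.099 (Irf1) under PMA/I with IL-2 and from -0.55 to 0.20 (Psmc3ip) and -0.027 to 0.45 (Tap1) in the interaction. The share of Psmb8 at rest ran from -2.7 to 0.342 percentage points.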
